A study of Mus musculus with 15 samples.

Results

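Tumors were compared with the adjacent liver of the same mouse, with the difference within each of 5 mice as the unit. The comparison takes 10 of the 15 arrays of the series, 5 tumors and 5 livers that carry the same mouse labels 4N, 4R, 5N, 5R and 6L. All mice were of the mixed strain 129S1/SvImJ;C57Bl/6J, males according to the methods, and no engineered allele is named for them. The mice of the comparison had received the Western diet with sugar water (WD SW) for 52 weeks. The other 5 arrays hold livers of mice on chow diet with normal water (CD NW) for the same 52 weeks; they entered the normalization and no test, and their levels are given only for orientation. The question was which genes differed between tumor and liver in every mouse. Each array holds total RNA of tissue kept in RNAlater, measured on an Illumina mouse whole-genome BeadChip. The sources used here do not say how many nodules went into a tumor sample. Values are log2 of background-corrected, quantile-normalized probe signal, and levels per array follow the order of labels given above. The dimmest probes above background lay at log2 levels of 5.15 to 5.56 in livers and of 5.10 to 5.50 in tumors, so lower levels cannot be ordered, and the log2 difference of a gene that was not above background on some arrays rests in part on such levels.

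In the liver lobule hepatocytes divide their work between the portal inflow and the central vein. Wnt signals from the endothelium of the central vein act through beta-catenin and hold glutamine synthesis and many cytochrome P450 enzymes in the hepatocytes nearest to it, while periportal hepatocytes carry the urea cycle, the breakdown of histidine and other amino acids and much of gluconeogenesis. Activating mutations of beta-catenin are known from liver tumors of humans and mice. A bulk tissue sample averages hepatocytes with Kupffer cells, endothelium and other cells, so that fewer cells of a type and less RNA per cell cannot be told apart in these data.

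The labels were checked against markers. Levels of Ttr (transthyretin, a hepatocyte product) were 14.87, 14.96, 14.98, 14.87 and 14.85 in livers and 14.76, 14.78, 15.04, 15.001 and 14.87 in tumors, and the groups overlapped. Summed over 22 hepatocyte products, the linear level was 364200 to 431900 in livers and 338500 to 385000 in tumors, and it was lower in the tumor of every mouse. Of 15 bile duct markers with a probe, 7 in livers and 8 in tumors were above background on no array, among them Epcam and Cftr. The same held in both tissues for 13 of 19 markers of pancreatic acinar cells, among them Cpa1 and Prss2. Deviations from the group means were correlated over genes between the liver and the tumor of a label, at r = 0.189, 0.261, 0.442, 0.494 and 0.520 in the order of labels, and each r was above that of the same tumor with any other liver. Probes above background numbered 13189 to 15430 on liver arrays and 13432 to 15829 on tumor arrays.

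The liver of mouse 5R stood apart. On a scale where 0 is the mean of the livers and 1 the mean of the tumors of the other 4 mice, over the genes called from those 4 mice, it lay at 0.536 for genes higher and at 0.475 for genes lower in tumors. The liver of mouse 4N lay at 0.0733 and 0.269, and those of mice 4R, 5N and 6L lay between -0.346 and 0.0197. The 5 tumors lay between 0.709 and 1.10. The differences of mouse 5R were the smallest of the 5 in 207 of 363 genes higher and in 174 of 501 genes lower in every tumor. Over all genes called, 383 higher and 524 lower, the median difference of mouse 5R was 0.542 and -0.715. It was 0.995 to 1.21 and -1.21 to -1.03 in the other mice. Results are therefore given with and without both arrays of mouse 5R where they differ.

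**Figure D1:**
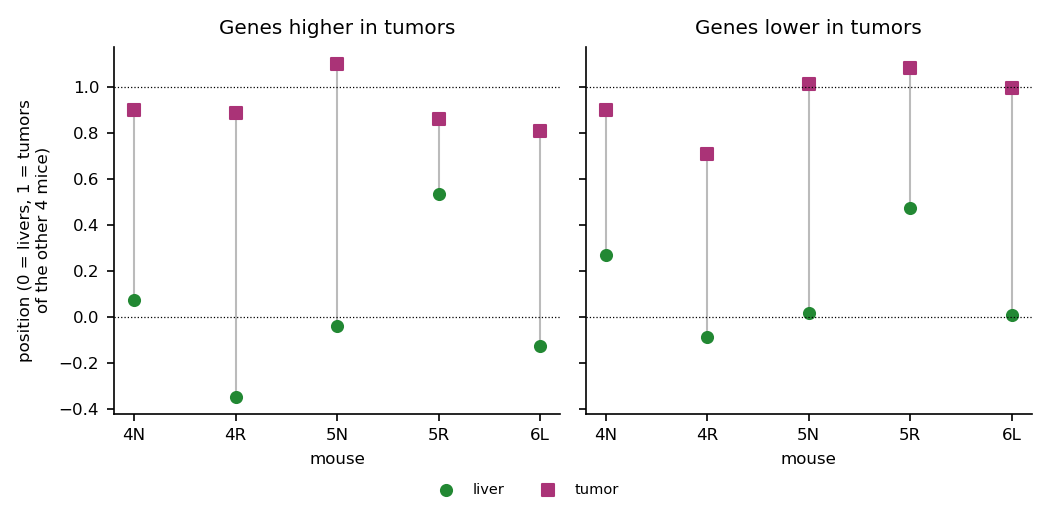
Position of each array on a scale from the mean of livers (0) to the mean of tumors (1) of the other 4 mice, over genes called higher (left) or lower (right) in those mice, with livers as circles and tumors as squares. The liver of mouse 5R lies near the middle in both panels, at 0.536 and 0.475, and every tumor lies at 0.709 or above.

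Of 8674 genes tested, 907 (10.5%) differed between tumor and liver at an adjusted p under 0.05 from limma with the mouse as a block, 383 (4.42%) higher and 524 (6.04%) lower in tumors. Of the genes tested, 363 (4.18%) were called and higher in all 5 pairs and 501 (5.78%) were called and lower in all 5 pairs, together 95.3% of the genes called. In the other 43 called genes at least 1 mouse went the other way. A difference beyond 2-fold in every mouse was found in 30 higher genes (0.346%) and 72 lower genes (0.830%). Tumor and liver levels did not overlap in 492 genes (5.67%). With 5 pairs an exact sign-flip test of a single gene cannot reach a two-sided p below 0.0625, so the calls rest on the spread that limma shares among genes. Without mouse 5R the count of genes beyond 2-fold in every remaining mouse was 103 higher and 102 lower. The total of 907 called genes was 334 without mouse 5N, 393 without mouse 4R and 520 without mouse 6L. List counts are also given under settings that moved them by more than 1.5 times, for most counts of 3 or fewer only where the settings concern the mice. These settings include fits with the mouse ignored and with the mouse as a random block, which keeps the pairing as an estimated correlation.

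Wnt target genes were searched for a sequence of their transcription factors, since beta-catenin acts on its targets through TCF/LEF proteins, which bind a known short motif. The windows searched ran from 250 bases before to 50 after each start in RefSeq (GRCm38.p6), on both strands. The TCF/LEF motif CTTTGAT, read on either strand, was in the windows of 3 of the 12 Wnt targets called higher that had a promoter entry (25%), out of 18 called higher. The share was 5.13% of 273 genes higher in every tumor, 2.53% of 395 genes lower in every tumor, 3.15% of 7108 genes tested and 4.29% of all 27025 genes with an entry. Of the periportal genes called lower with an entry, 1 of 10 (10%) held it. Sets of 12 and 10 genes are too small to show a contrast with each other or with these shares. The motif of each of the 3 Wnt targets is shown with 20 bases on either side of the motif, in capitals and in the direction of transcription, beside the same letters before Hal, the gene with the largest fall, and the HNF4A motif CAAAGTCCA before Cyp8b1. A match is a description of letters and not of a bound site, and both motifs share CAAAG.
Sp5 (chr2:70474799-70474845, plus strand, motif 104 bases before the start): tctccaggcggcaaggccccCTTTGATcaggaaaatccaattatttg
Slc1a2 (chr2:102706211-102706257, plus strand, motif 207 bases before the start): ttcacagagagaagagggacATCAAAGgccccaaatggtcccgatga
Tnfrsf19 (chr14:61038163-61038209, minus strand, motif 202 bases before the start): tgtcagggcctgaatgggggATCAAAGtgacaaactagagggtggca
Hal (chr10:93488549-93488595, plus strand, motif 199 bases before the start): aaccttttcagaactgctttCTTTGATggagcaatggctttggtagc
Cyp8b1 (chr9:121916344-121916392, minus strand, motif 67 bases before the start): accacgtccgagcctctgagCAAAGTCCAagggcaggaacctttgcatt
The HNF4A motif was in 6 (2.20%) of the genes higher in every tumor, 5 (1.27%) of those lower and 46 (0.647%) of genes tested. The HNF1 motif GTTAATNAT was in 4 (1.47%), 3 (0.759%) and 54 (0.76%) of the same sets. None of the 12 Wnt targets held either motif, but a set of 12 is too small to show a contrast with such shares.

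Wnt target genes rose together in the tumors. Of 24 Wnt and beta-catenin targets tested, 18 were called higher and all 18 were higher in every pair, and 1, Ctnnbip1, was called lower. Together they made 79.2% of the list, beside 10.5% of all genes tested. The members of this and the other lists were chosen with earlier results of these data known, so such shares are descriptions and no test. The median difference over the 24 was 1.90 on the log2 scale, beside 0.0024 over all genes tested. Sp5, a transcription factor induced by Wnt that carries the motif shown above, had levels of 7.15, 6.51, 7.64, 9.62 and 6.87 in livers and 10.55, 11.06, 11.48, 11.25 and 10.71 in tumors. The 5 tumors spanned a narrow range, and the liver of mouse 5R was the highest liver but still below every tumor. Sp5 rose by 3.45 (standard error 0.36, adjusted p = 0.00172). Axin2, a negative regulator of the pathway and one of its most general targets, had levels of 6.72, 6.67, 6.86, 9.08 and 7.39 in livers and 9.18, 9.96, 10.93, 9.94 and 10.88 in tumors. Again no tumor overlapped a liver, and the difference was smallest in mouse 5R, at 0.86. Its mean difference was 2.83 (standard error 0.40, adjusted p = 0.00498).

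Secreted and intracellular inhibitors of the pathway were among the genes that rose. Notum, an enzyme that inactivates Wnt ligands, had levels of 8.50, 7.64, 8.07, 9.36 and 7.44 in livers and 9.87, 9.90, 10.30, 10.36 and 10.46 in tumors. Nkd1, an intracellular inhibitor, had levels of 6.81, 4.65, 5.70, 9.22 and 4.74 and 8.90, 9.77, 11.18, 9.52 and 10.74. The liver of mouse 5R reached 9.22 for Nkd1 and lay inside the range of the tumors, while the livers of mice 4R and 6L were not above background. Its mean difference was 3.80 (standard error 0.77, adjusted p = 0.0191). Wif1, a secreted inhibitor, was the exception among the tumors, because its level in the tumor of mouse 5R was 5.28 while the other tumors reached 8.41 to 9.59, with a mean difference of 2.85 (standard error 0.50, adjusted p = 0.0117). Lgr5, the R-spondin receptor of central hepatocytes and stem cells, rose by 2.43 (standard error 0.37, adjusted p = 0.00652) and Tnfrsf19, a receptor of the tumor necrosis factor family, by 2.08 (standard error 0.41, adjusted p = 0.0180). Tbx3, a transcription factor downstream of beta-catenin, rose by 1.61 (standard error 0.30, adjusted p = 0.0150). The call of Nkd1 was lost without mouse 4R, 5N or 6L (adjusted p = 0.0741, 0.0756 and 0.0545), that of Wif1 without mouse 5N (adjusted p = 0.0524), that of Tnfrsf19 without mouse 4R, 5N or 6L (adjusted p = 0.0699, 0.0732 and 0.0520) and that of Tbx3 without mouse 5N (adjusted p = 0.0625).

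Ctnnbip1 moved against the rest of the list with little spread between mice. The gene encodes an inhibitor that keeps beta-catenin from TCF/LEF proteins. Its levels were 8.16, 8.002, 8.28, 7.46 and 7.60 in livers and 6.42, 6.51, 6.63, 5.97 and 5.96 in tumors, without overlap. The 5 differences lay between -1.74 and -1.49, and Ctnnbip1 fell by 1.60 (standard error 0.14, adjusted p = 0.000799). Ctnnb1, the beta-catenin gene itself, was not called, with a difference of 0.40 (standard error 0.14, adjusted p = 0.0971). With array weights Ctnnb1 was called higher (adjusted p = 0.0409).

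Transporters and enzymes that beta-catenin controls in central hepatocytes were among the genes called higher. Glul, glutamine synthetase, had levels of 10.34, 8.89, 9.73, 11.62 and 10.09 in livers and 12.54, 12.68, 12.12, 12.60 and 12.24 in tumors. The tumors lay closer together than the livers, and the liver of mouse 5R was again nearest to them. The ammonium transporter gene Rhbg had levels of 8.56, 6.33, 7.30, 9.90 and 7.46 in livers and 11.18, 10.49, 10.38, 10.94 and 10.46 in tumors, and CD NW livers averaged 5.92. No liver reached a tumor for Glul or Rhbg. Glul rose by 2.30 (standard error 0.32, adjusted p = 0.00494) and Rhbg by 2.78 (standard error 0.36, adjusted p = 0.00383). Slc1a2, a glutamate transporter, rose by 2.54 (standard error 0.47, adjusted p = 0.0140), and Lhpp, a phosphatase of histidine and lysine residues, by 2.33 (standard error 0.36, adjusted p = 0.00645). The vasopressin receptor gene Avpr1a rose by 2.38 (standard error 0.48, adjusted p = 0.0190), and Oat, ornithine aminotransferase, by 1.20 (standard error 0.23, adjusted p = 0.0161). The call of Slc1a2 was lost without mouse 4R or 5N (adjusted p = 0.0561 and 0.0548), that of Avpr1a without mouse 4R or 6L (adjusted p = 0.0699 and 0.0578) and that of Oat without mouse 4R or 5N (adjusted p = 0.0650 and 0.0659).

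Of 19 pericentral hepatocyte genes tested, 12 were called higher, 11 of them in every pair, and none lower, and the median difference was 1.19. The list shares Axin2, Cyp1a2, Cyp2e1, Glul, Oat and Slc1a2 with the Wnt targets. Cyp1a2, a P450 enzyme of caffeine and arylamine metabolism, had levels of 12.08, 10.91, 12.44, 12.43 and 10.12 in livers and 13.57, 13.51, 14.34, 13.16 and 12.52 in tumors. The livers of mice 4R and 6L were lower than the others, and no liver reached a tumor. Cyp3a11, the main drug-metabolizing P450 of its family in mice, rose by 2.07 (standard error 0.32, adjusted p = 0.00678), and Cyp27a1, sterol 27-hydroxylase, by 0.70 (standard error 0.10, adjusted p = 0.00565). Gulo, the last enzyme of vitamin C synthesis, rose by 1.59 (standard error 0.29, adjusted p = 0.0140). All 19 genes had a positive mean difference. Cyp2e1, the classic central P450 enzyme of ethanol metabolism, was not called and had levels of 15.02, 15.10, 14.68, 15.20 and 14.57 in livers and 14.65, 15.04, 15.19, 15.16 and 15.20 in tumors and a difference of 0.13 (standard error 0.16, adjusted p = 0.646). Like those of Ttr, these levels lay near the brightest hepatocyte product, Trf, with means of 15.18 in livers and 15.15 in tumors. Whether a rise could still be seen at such levels was not tested. The call of Gulo was lost without mouse 4R or 5N (adjusted p = 0.0554 and 0.0545).

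Mouse 5R had the smallest difference in 15 of the 19 called Wnt targets and in 7 of the 12 called pericentral genes. Without that mouse 18 Wnt targets were called higher and the median was 2.16, and 11 pericentral genes were called higher. Wnt targets called higher numbered 18 with all pairs, but 11 without mouse 4R or 5N. Pericentral genes called higher numbered 12 with all pairs, but 6 without mouse 5N and 7 without mouse 4R.

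**Figure D2:**
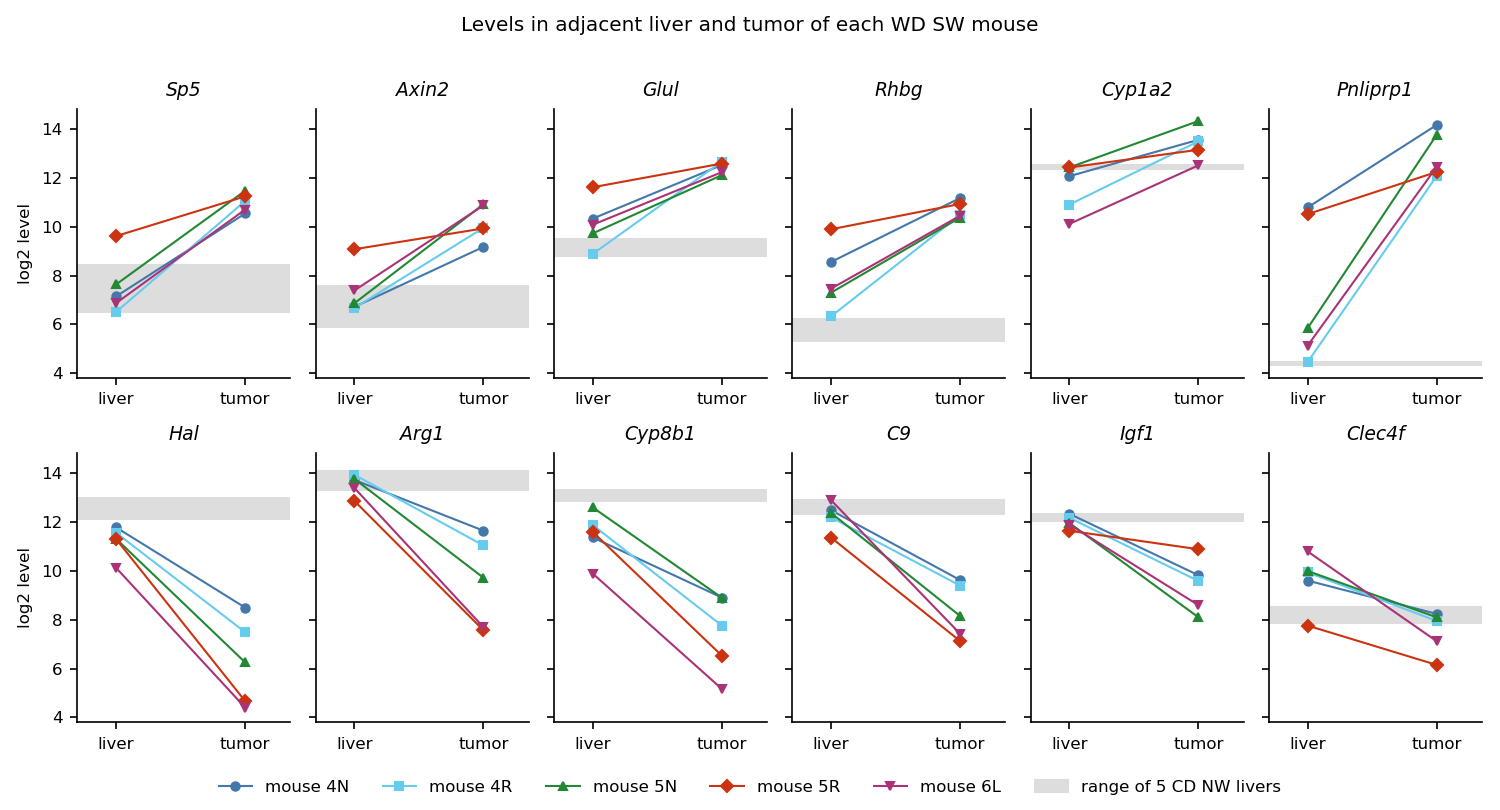
Log2 level of 12 genes in the adjacent liver and the tumor of each WD SW mouse, joined by a line, with the range of the 5 CD NW livers as a grey band. In the upper row every line rises and the line of mouse 5R starts highest for Sp5, Axin2, Glul and Rhbg; in the lower row every line falls.

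Genes of the opposite, periportal zone fell. Of 15 periportal hepatocyte genes tested, 11 were called lower, all in every pair, and none was called higher; the median difference was -2.01. Hal, histidine ammonia-lyase, which starts the breakdown of histidine, had levels of 11.79, 11.57, 11.32, 11.31 and 10.13 in livers and 8.50, 7.49, 6.25, 4.67 and 4.40 in tumors. The tumors of mice 5R and 6L were not above background, and no tumor overlapped a liver. Hal fell by 4.96 (standard error 0.42, adjusted p = 0.000799), the largest mean fall among genes lower in every pair. Cyp2f2, a P450 enzyme used as a periportal marker, had levels of 12.47, 12.30, 13.44, 11.02 and 11.31 in livers and 9.42, 10.73, 8.36, 4.86 and 4.69 in tumors. Its differences ran from -6.62 in mouse 6L to -1.57 in mouse 4R, and again the tumors of mice 5R and 6L were not above background. Pigr, the receptor that carries immunoglobulin A into bile, varied far less, with differences between -2.33 and -1.65 (mean -2.01, standard error 0.13, adjusted p = 0.000438). Ctsc, the protease cathepsin C, fell by 1.97 (standard error 0.18, adjusted p = 0.000987) and Gldc, the glycine decarboxylase, fell by 3.08 (standard error 0.42, adjusted p = 0.00461).

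The enzymes that turn histidine into glutamate were lower at each of their 4 steps. Of 7 genes of histidine breakdown tested, 5 were called lower in every pair and none higher. After Hal, the next enzyme, urocanase (Uroc1), had levels of 13.03, 13.11, 12.81, 12.68 and 12.37 in livers and 10.21, 11.39, 10.54, 10.53 and 9.53 in tumors. All livers lay above all tumors, and the differences were within -2.84 and -1.72. Uroc1 fell by 2.36 (standard error 0.17, adjusted p = 0.000545), Amdhd1, the imidazolonepropionase, fell by 2.51 (standard error 0.29, adjusted p = 0.00262) and Ftcd, which hands the formimino group to folate, fell by 1.25 (standard error 0.22, adjusted p = 0.0121). The other called gene, Aldh1l1, is left without a direction here because its probes had opposite signs. Hdc, which makes histamine from histidine, was not called, at -0.38 (standard error 0.26, adjusted p = 0.394). Leaving out each mouse in turn gave 4 or 5 lower genes.

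Arg1, arginase, ended the urea cycle at a far lower level in tumors. Levels were 13.73, 13.94, 13.78, 12.87 and 13.40 in livers and 11.65, 11.04, 9.72, 7.57 and 7.69 in tumors. The livers lay close together, while the tumors spread widely, and mice 5R and 6L had the lowest tumors. Arg1 fell by 4.01 (standard error 0.48, adjusted p = 0.00298). Cps1, carbamoyl phosphate synthetase, which starts the cycle, had levels of 13.49, 13.85, 12.65, 12.48 and 12.54 in livers and 12.96, 10.47, 9.29, 11.36 and 7.06 in tumors. The tumor of mouse 4N stayed near its liver, at a difference of -0.54, and that of mouse 6L was -5.48 from its liver. The mean difference of Cps1 was -2.78 (standard error 0.62, adjusted p = 0.0265). Ass1, argininosuccinate synthetase, fell by 1.67 (standard error 0.29, adjusted p = 0.0115) and Otc, ornithine transcarbamylase, fell by 1.16 (standard error 0.22, adjusted p = 0.0148). The argininosuccinate lyase gene Asl was called, at -1.24 (standard error 0.32, adjusted p = 0.0423), but mouse 6L had a difference of 0.02, and the gene is thus not among those lower in every pair. The call of Cps1 was lost without mouse 4R or 5N (adjusted p = 0.0921 and 0.0938), that of Otc without mouse 4R or 5N (adjusted p = 0.0549 and 0.0514) and that of Asl without mouse 4N, 4R, 5N or 5R (adjusted p = 0.0870, 0.0978, 0.0977 and 0.0863). Asl lost its call with the authors' values (adjusted p = 0.0517), without background correction (adjusted p = 0.0528) and without the filter on dim probes (adjusted p = 0.0576).

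Of 28 genes of the urea cycle and of periportal amino acid catabolism, 11 were called lower and 2 higher, with a median of -0.55. The 2 higher were Oat and Agxt2, a transaminase of glyoxylate. Kynu, the kynureninase, fell by 1.73 (standard error 0.27, adjusted p = 0.00655) and Kmo, the kynurenine monooxygenase, fell by 0.91 (standard error 0.20, adjusted p = 0.0259), while Tdo2, tryptophan dioxygenase, at -0.57 (standard error 0.17, adjusted p = 0.0726), and Haao, a later enzyme of the same pathway, at -0.22 (standard error 0.11, adjusted p = 0.262), were not called. Gnmt, glycine N-methyltransferase, fell by 1.24 (standard error 0.22, adjusted p = 0.0116). Urea cycle and amino acid genes called lower numbered 11 with all pairs, but 4 without mouse 5N and 5 without mouse 4R or with the mouse ignored. Sfxn1, a serine transporter of mitochondria, and Aspg, an asparaginase, are on none of these lists but were among the genes with the largest falls in every pair, at -4.04 (standard error 0.36, adjusted p = 0.000830) and -4.36 (standard error 0.34, adjusted p = 0.000765). Aspg was above background in 3 of 5 tumors. Levels of Sfxn1 were 12.61, 12.76, 12.41, 11.39 and 12.20 in livers and 9.74, 9.82, 8.29, 6.30 and 6.996 in tumors. The call of Agxt2 was lost without mouse 4N, 4R, 5N or 6L (adjusted p = 0.0626, 0.113, 0.119 and 0.0638), that of Kmo without mouse 4N, 4R, 5N or 6L (adjusted p = 0.0514, 0.0786, 0.0675 and 0.0594) and that of Gnmt without mouse 5N (adjusted p = 0.0524). Agxt2 lost its call after median scaling (adjusted p = 0.0623) and without the filter on dim probes (adjusted p = 0.0570). Tdo2 was called lower without mouse 5R (adjusted p = 0.0319).

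Genes of glutamine, glutamate and proline metabolism split, with 5 of 18 called higher and 2 lower. Besides Glul, Rhbg, Slc1a2 and Oat the higher gene was Slc1a4, a transporter of small neutral amino acids, at 1.56 (standard error 0.25, adjusted p = 0.00853). Glutamine and proline genes called higher numbered 5 with all pairs, but 3 without mouse 4R or 5N. Genes of this list called lower numbered 2 with all pairs, but 0 without mouse 4N, 5N or 5R or with the mouse ignored and 1 with the mouse as a random block.

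**Figure D3:**
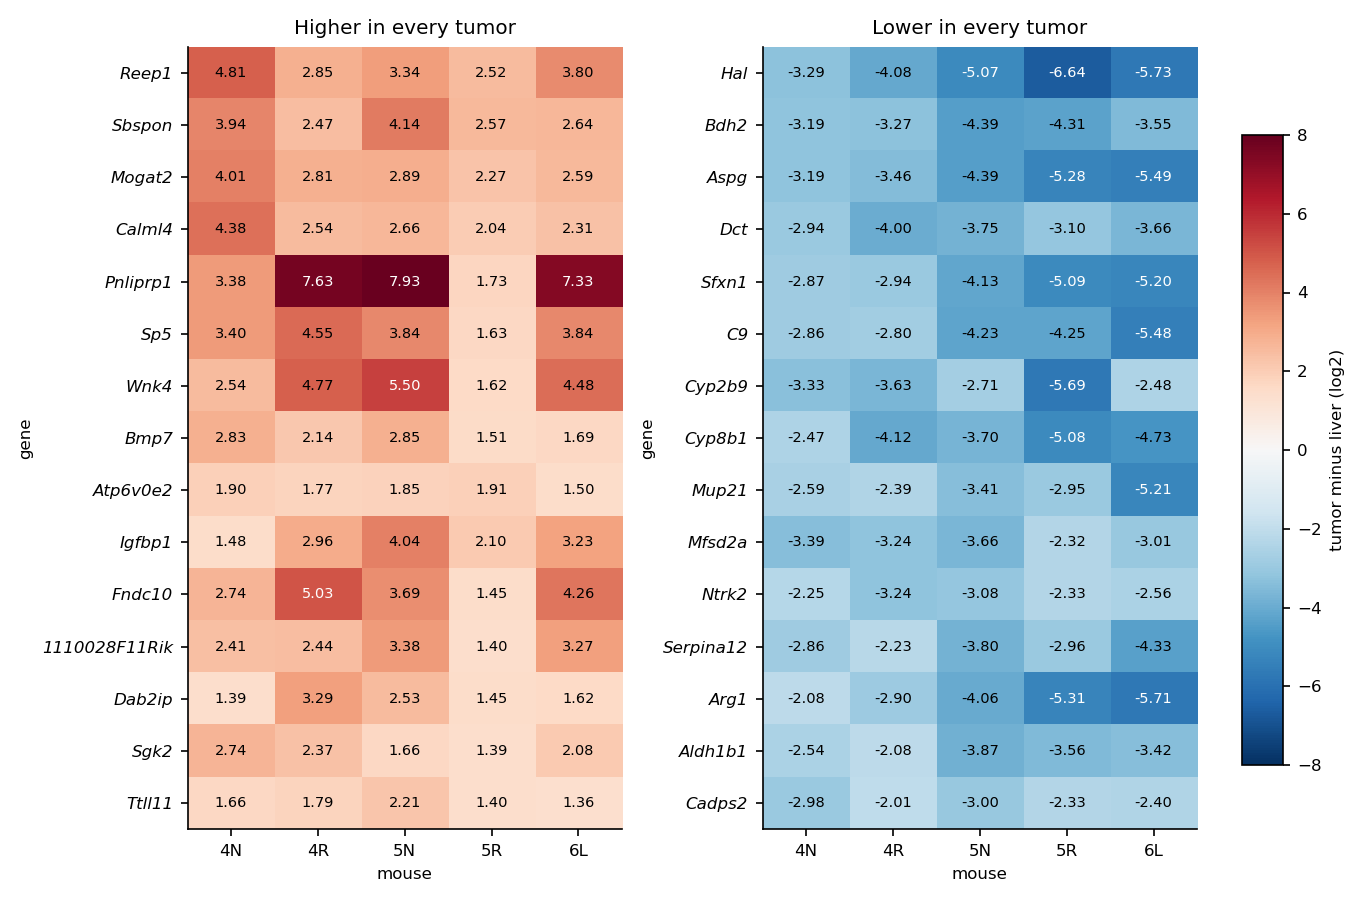
Tumor minus liver on the log2 scale in each mouse for the 15 higher and the 15 lower genes whose smallest difference over the 5 mice was largest, in that order from the top. Red is higher and blue lower in the tumor; the column of mouse 5R is the palest in most rows of the left panel, with 2.52 for Reep1 and 1.39 for Sgk2.

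Ranked by the smallest of the 5 differences, the higher genes were led by genes outside the zonation lists. Reep1, a protein that shapes the endoplasmic reticulum, had levels of 4.57, 4.25, 5.13, 5.68 and 4.39 in livers and 9.38, 7.10, 8.47, 8.20 and 8.19 in tumors. Only the liver of mouse 5R was above background, and no CD NW liver exceeded 4.32. Reep1 rose by 3.46 (standard error 0.31, adjusted p = 0.000830). Sbspon, a secreted matrix protein with a somatomedin B domain, was above background on no liver array and was at least 5.12-fold higher in tumors, with tumor levels of 8.62, 6.83, 8.42, 7.14 and 7.08. Mogat2, which makes diacylglycerol from monoacylglycerol and is best known from the intestine, had levels of 4.55, 4.56, 5.64, 6.45 and 4.65 in livers and 8.56, 7.37, 8.53, 8.72 and 7.24 in tumors. Tumors lay above all livers for these genes. Calml4, a calmodulin-like protein, had levels of 5.58, 4.997, 5.66, 5.31 and 5.27 in livers and 9.96, 7.54, 8.32, 7.35 and 7.58 in tumors. The tumor of mouse 4N was the highest for Reep1, Sbspon and Calml4.

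Pnliprp1, a pancreatic lipase-related protein, had the largest mean rise in every pair. Its levels were 10.80, 4.46, 5.85, 10.52 and 5.13 in livers and 14.18, 12.09, 13.78, 12.25 and 12.47 in tumors. The livers of mice 4N and 5R were high, the liver of mouse 5N was just above background and the livers of mice 4R and 6L were not above it. Pnliprp1 rose by 5.60 (standard error 0.88, adjusted p = 0.00734). The defining acinar markers Cpa1, Prss2, Cel, Clps, Pla2g1b and Reg1 were above background on no array of livers or tumors, and Amy2a5, a pancreatic amylase, had a difference of -0.07 (standard error 0.13, adjusted p = 0.771). Amy2a5 was bright in both tissues, at means of 13.43 in livers and 13.36 in tumors. Whether its probe shares signal with other amylase genes was not tested. Cela1, an elastase, rose by 1.27 (standard error 0.24, adjusted p = 0.0148). The call of Cela1 was lost without mouse 5N (adjusted p = 0.0643).

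Other genes above 2-fold in every pair encode signaling proteins and channel regulators. Wnk4, a kinase that regulates salt transporters, had levels of 8.03, 5.55, 5.16, 9.36 and 4.97 in livers and 10.57, 10.32, 10.66, 10.98 and 9.45 in tumors. As for Pnliprp1, the livers of mice 4N and 5R were the highest livers. Bmp7, a ligand of the bone morphogenetic protein family, rose by 2.20 (standard error 0.24, adjusted p = 0.00194), with tumor levels of 7.77, 6.43, 7.68, 7.38 and 6.30. Dab2ip, a Ras GTPase activating protein, rose by 2.06 (standard error 0.28, adjusted p = 0.00461) and Sgk2, a kinase related to the serum and glucocorticoid regulated kinase, by 2.05 (standard error 0.20, adjusted p = 0.00110). Ttll11, a tubulin polyglutamylase, rose by 1.69 (standard error 0.18, adjusted p = 0.00176). Mean levels of Sgk2 were 9.41 in WD SW livers, 11.46 in tumors and 10.65 in CD NW livers. Those of Ttll11 were 5.26, 6.94 and 5.88 in the same order, so CD NW livers lay between the other groups for both genes. Fndc10, a membrane protein with a fibronectin domain, rose by 3.43 (standard error 0.44, adjusted p = 0.00363) and the RIKEN gene 1110028F11Rik by 2.58 (standard error 0.28, adjusted p = 0.00192). Atp6v0e2, a subunit of the proton pump of lysosomes, had tumor levels of 6.50, 6.05, 6.74, 6.81 and 6.17. Livers above background numbered 3 of 5 for Wnk4, 1 for Bmp7, 2 for Ttll11 and 4 for 1110028F11Rik. No liver array was above background for Atp6v0e2, and it was at least 2.29-fold higher in tumors.

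The lower genes with the largest smallest difference, besides those named above, came from ketone, pigment, lipid and neuronal gene families. Bdh2, a cytosolic hydroxybutyrate dehydrogenase, had levels of 10.003, 9.80, 10.12, 9.20 and 7.98 in livers and 6.81, 6.53, 5.72, 4.89 and 4.42 in tumors. Livers and tumors did not overlap, although the liver of mouse 6L lay below the other livers. Bdh2 fell by 3.74 (standard error 0.22, adjusted p = 0.000271). Dct, dopachrome tautomerase, known from melanin synthesis, had levels of 10.24, 9.68, 8.77, 7.89 and 8.09 in livers and 7.30, 5.68, 5.02, 4.79 and 4.42 in tumors. Only 2 of the 5 tumors were above background for Dct, so the size of the difference is set by the background in the other 3 pairs. On these values Dct fell by 3.49 (standard error 0.19, adjusted p = 0.000271). Mfsd2a, a transporter of lysophosphatidylcholine that fasting induces in liver, had levels of 12.39, 12.55, 11.97, 10.07 and 10.11 in livers and 9.002, 9.31, 8.32, 7.75 and 7.10 in tumors. The livers fell into a higher set of mice 4N, 4R and 5N and a lower set of mice 5R and 6L, yet each tumor was lower than its own liver by 2.32 or more. Ntrk2, the receptor of brain-derived neurotrophic factor, fell by 2.69 (standard error 0.19, adjusted p = 0.000475) and Cadps2, a protein of vesicle secretion, fell by 2.54 (standard error 0.18, adjusted p = 0.000475). Aldh1b1, a mitochondrial aldehyde dehydrogenase, fell by 3.09 (standard error 0.27, adjusted p = 0.000830). Tumors above background numbered 3 of 5 for Bdh2 and Ntrk2 and 2 of 5 for Aldh1b1. CD NW livers averaged 10.71 for Bdh2, 6.42 for Ntrk2 and 8.22 for Aldh1b1.

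Genes of terminal complement were among the secreted hepatocyte products that fell. Of 24 complement genes tested, 9 were called lower in every pair and none higher, with a median of -0.56. C9, the subunit that forms the membrane pore, had levels of 12.49, 12.20, 12.38, 11.37 and 12.90 in livers and 9.63, 9.40, 8.15, 7.12 and 7.42 in tumors. No tumor came near a liver, and the tumors of mice 5R and 6L were the lowest. C9 fell by 3.92 (standard error 0.36, adjusted p = 0.000925). C8a and C8b, which bind before C9, fell, with log2 differences of -1.96 (standard error 0.14, adjusted p = 0.000475) and -2.08 (standard error 0.22, adjusted p = 0.00176). C8g, the third chain of the same component, was not called, at -0.08 (standard error 0.12, adjusted p = 0.744). C4b, of the classical pathway, fell by 1.24 (standard error 0.16, adjusted p = 0.00404). The count of lower complement genes was 9 without mouse 5R, ran from 6 to 11 over the mice left out in turn and was 5 with the mouse ignored.

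Of 31 coagulation factors and serpins, 7 were called lower, 2 were called higher and 22 were not called. The genes called made 29% of the list, beside 10.5% of all genes called. Coagulation and serpin genes called lower numbered 7 with all pairs, but 3 with the mouse ignored. Genes of the list called higher numbered 2 with all pairs, but 0 without mouse 4R or 5N and 1 without mouse 6L or with the mouse ignored. Serpina12, the adipokine vaspin, had levels of 12.07, 11.46, 12.74, 10.97 and 12.77 in livers and 9.22, 9.23, 8.95, 8.01 and 8.45 in tumors. Every liver lay well above every tumor. Probes of the alpha-1-antitrypsin genes Serpina1c and Serpina1e may share signal with near-identical copies; they fell, with log2 differences of -1.73 (standard error 0.14, adjusted p = 0.000799) and -2.94 (standard error 0.32, adjusted p = 0.00192). Hgfac, the activator of hepatocyte growth factor, fell by 1.14 (standard error 0.15, adjusted p = 0.00363). Hamp, hepcidin, the hormone that limits iron export, had levels of 14.19, 13.91, 13.75, 14.01 and 14.40 in livers and 11.42, 12.56, 12.11, 10.27 and 11.95 in tumors. The livers were nearly level, and the tumor of mouse 5R was the lowest. Hamp fell by 2.39 (standard error 0.31, adjusted p = 0.00363), and its close copy Hamp2, which the probes may not separate fully, fell by 4.12 (standard error 0.69, adjusted p = 0.00948). Slc11a2, an iron importer, rose by 1.19 (standard error 0.15, adjusted p = 0.00325), and no other of the 21 iron genes tested was called. The iron genes called made 14.3% of those tested, beside 10.5% of all genes called.

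Of 23 acute phase proteins, 6 (26.1%) were called lower in every pair and none higher, beside 10.5% of all genes called. Orm1, orosomucoid, had levels of 14.44, 14.27, 13.47, 13.08 and 15.22 in livers and 12.92, 12.44, 11.77, 12.63 and 14.55 in tumors. Both tissues of mouse 6L were the highest of their group. Orm1 fell by 1.23 (standard error 0.21, adjusted p = 0.0106). Saa1, serum amyloid A, fell by 2.13 (standard error 0.41, adjusted p = 0.0160), but its difference in mouse 6L was -0.07. Itih4, a plasma protease inhibitor, fell by 0.60 (standard error 0.12, adjusted p = 0.0161). Acute phase genes called lower numbered 6 with all pairs, but 0 with the mouse ignored or with the mouse as a random block, 2 without mouse 4R or 5N and 3 without mouse 6L or after median scaling. Mt2, a metallothionein, fell by 2.65 (standard error 0.37, adjusted p = 0.00479). The call of Saa1 was lost without mouse 4R or 5N (adjusted p = 0.0562 and 0.0656) and that of Itih4 without mouse 4R or 5N (adjusted p = 0.0667 and 0.0524). Itih4 lost its call with the mean of probes (adjusted p = 0.0659), after median scaling (adjusted p = 0.0851) and with the mouse as a random block (adjusted p = 0.0555). Orm1 lost its call with the mouse as a random block (adjusted p = 0.0522). Saa1 lost its call with the mouse as a random block (adjusted p = 0.152).

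Most called genes of the growth hormone axis were lower. Of 34 genes of the growth hormone and IGF axis, 11 were called lower, all in every pair, and 1, Igfbp1, was called higher. Genes of this axis called lower numbered 11 with all pairs, but 6 with the mouse ignored. Igfbp1 was among the 43 named genes that lost their call with the mouse ignored (adjusted p = 0.105 for Igfbp1). Such losses of the other genes are not listed one by one. Igf1, the main hormone that liver releases under growth hormone, had levels of 12.34, 12.18, 11.97, 11.65 and 11.90 in livers and 9.82, 9.59, 8.10, 10.89 and 8.60 in tumors. No tumor reached a liver, and the tumor of mouse 5R was the highest of the tumors. Igf1 fell by 2.61 (standard error 0.37, adjusted p = 0.00518). Igfbp1, a binding protein that insulin represses, had levels of 10.16, 7.76, 4.70, 7.40 and 8.28 in livers and 11.64, 10.72, 8.75, 9.50 and 11.51 in tumors. Its levels varied widely between mice, so the groups overlapped, but every tumor was above its own liver. Igfbp1 rose by 2.76 (standard error 0.33, adjusted p = 0.00275). Egfr, the receptor of epidermal growth factor, which growth hormone sustains in mouse liver, fell by 1.81 (standard error 0.19, adjusted p = 0.00191). The receptor gene Ghr was not called, at -0.33 (standard error 0.15, adjusted p = 0.214).

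Mup21, a major urinary protein gene, had levels of 12.59, 11.78, 12.996, 10.83 and 11.83 in livers and 10.004, 9.39, 9.59, 7.88 and 6.62 in tumors. Probes of this multigene family share sequence, so which copies changed is uncertain. The signal fell by 3.31 (standard error 0.36, adjusted p = 0.00202). Cyp2b9, a P450 gene that is more active in female liver, had levels of 7.93, 10.43, 8.36, 11.27 and 7.32 in livers and 4.60, 6.80, 5.65, 5.58 and 4.84 in tumors, and CD NW livers ranged from 4.85 to 9.08. Livers varied widely between mice, and still each tumor was lower than every liver. Esr1, estrogen receptor alpha, fell by 1.76 (standard error 0.20, adjusted p = 0.00214). Sult1e1, estrogen sulfotransferase, fell by 2.10 (standard error 0.22, adjusted p = 0.00172). Hnf4a, the master regulator of hepatocyte genes, had a difference of -0.01 (standard error 0.14, adjusted p = 0.972).

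Bile acid genes moved in both directions, with 7 of 26 called higher and 5 lower, each in every pair. Cyp8b1, the sterol 12-alpha-hydroxylase that sets the share of cholic acid, had levels of 11.38, 11.88, 12.61, 11.60 and 9.89 in livers and 8.91, 7.76, 8.90, 6.53 and 5.17 in tumors. Mouse 6L had the lowest liver and the lowest tumor, and CD NW livers averaged 13.17. Cyp8b1 fell by 4.02 (standard error 0.33, adjusted p = 0.000799). Cyp7a1, the rate-limiting enzyme of the classical pathway, was not called, at 0.17 (standard error 0.41, adjusted p = 0.841). Nr1h4, the bile acid receptor FXR, fell by 0.95 (standard error 0.13, adjusted p = 0.00498). Slco2a1, a prostaglandin transporter, fell by 2.34 (standard error 0.22, adjusted p = 0.00105). Of the export pumps of the canalicular membrane, Abcb4, which moves phosphatidylcholine, rose by 0.74 (standard error 0.11, adjusted p = 0.00549) and Abcb11, the bile salt export pump, by 1.16 (standard error 0.21, adjusted p = 0.0135). Abcc4, an efflux pump of the basolateral membrane, rose by 1.87 (standard error 0.40, adjusted p = 0.0225). Its livers already lay at 6.84 to 10.19, against a mean of 4.84 in CD NW livers. Bile acid genes called higher numbered 7 with all pairs, but 3 without mouse 5N or with the mouse ignored. The call of Abcb11 was lost without mouse 5N (adjusted p = 0.0555) and that of Abcc4 without mouse 4N or 5N (adjusted p = 0.0565 and 0.0513).

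Of 34 P450 genes of families 1 to 4, 10 were called higher, 8 of them in every pair, and 4 lower, and in 8 of these 14 genes mouse 5R had the smallest difference. P450 genes called higher numbered 10 with all pairs, but 3 without mouse 5N, 4 without mouse 4R or with the mouse ignored and 5 without mouse 6L. P450 genes called lower numbered 4 with all pairs, but 2 with all 10 arrays above background. Probes of the Cyp2c family may share signal. Cyp2c38 rose by 1.98 (standard error 0.26, adjusted p = 0.00383), with levels of 7.01, 6.81, 6.35, 8.31 and 6.75 in livers and 8.67, 8.75, 8.68, 9.29 and 9.73 in tumors. Of 21 glutathione transferases, 5 were called higher and 1 lower. Glutathione transferases called higher numbered 5 with all pairs, but 2 with the mouse ignored. Gstt2 rose by 1.29 (standard error 0.14, adjusted p = 0.00202), and the mu class genes Gstm6 and Gstm2, whose probes may not separate the copies, by 1.66 (standard error 0.22, adjusted p = 0.00452) and 1.48 (standard error 0.21, adjusted p = 0.00530). Gsto1, of the omega class, fell by 2.28 (standard error 0.34, adjusted p = 0.00554), with levels of 10.34, 10.62, 10.53, 10.17 and 9.82 in livers and 6.85, 8.39, 7.54, 9.39 and 7.89 in tumors. Its tumor of mouse 5R was the nearest to the livers. Of 26 targets of NRF2 and antioxidant enzymes 3 were called higher and 1 lower, together 15.4% beside 10.5% of all genes called. Nqo1, the usual marker of NRF2, had a difference of 0.32 (standard error 0.39, adjusted p = 0.668). NRF2 targets called higher numbered 3 with all pairs, but 0 without mouse 4N or with the mouse ignored and 1 without mouse 4R, 5N or 5R.

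Of 32 genes of fatty acid oxidation and PPAR alpha targets, 6 (18.8%) were called higher, 5 of them in every pair, and none lower, beside 4.42% of all genes called higher. Fatty acid oxidation genes called higher numbered 6 with all pairs, but 1 with the mouse ignored and 2 without mouse 4R or 5N. Acot1, a cytosolic acyl-CoA thioesterase, had levels of 9.93, 10.27, 9.22, 10.76 and 8.79 in livers and 12.85, 12.59, 11.69, 11.91 and 12.14 in tumors. Every tumor was above every liver. Acot1 rose by 2.44 (standard error 0.27, adjusted p = 0.00221). Fgf21, a hormone of fasting and stress, rose by 1.83 (standard error 0.34, adjusted p = 0.0148), and Pdk4, which restrains glucose oxidation, by 1.74 (standard error 0.34, adjusted p = 0.0160). Ppara itself was at 0.17 (standard error 0.22, adjusted p = 0.690). Of 24 genes of fatty acid synthesis and desaturation, 2 (8.33%) were called, both lower. This share is near the 10.5% of all genes called and the 6.04% called lower. Thrsp, a regulator of lipogenesis, led them at -1.51 (standard error 0.25, adjusted p = 0.00849). Scd1, the main desaturase, had a difference of -0.24 (standard error 0.11, adjusted p = 0.211). Fatty acid synthesis genes called lower numbered 2 with all pairs, but 0 with the mouse ignored and 1 without mouse 4R, 5N or 6L or with the mouse as a random block. Stard4, a carrier of cholesterol, was the only gene called of 17 (5.88%) in cholesterol synthesis and uptake. Gluconeogenesis was represented by Fbp1, fructose bisphosphatase, which fell by 1.25 (standard error 0.23, adjusted p = 0.0142), and Pck1, which fell by 1.83 (standard error 0.36, adjusted p = 0.0172), in a list of 26 with 4 lower genes and no higher one. The 4 made 15.4% of the list, beside 10.5% of all genes called and 6.04% called lower. Glucose metabolism genes called lower numbered 4 with all pairs, but 0 without mouse 4R, 1 without mouse 5N or with the mouse ignored and 2 without the filter on dim probes. The call of Pdk4 was lost without mouse 4R or 5N (adjusted p = 0.0604 and 0.0627), that of Stard4 without mouse 4R or 5N (adjusted p = 0.0884 and 0.0770), that of Fbp1 without mouse 4R or 5N (adjusted p = 0.0563 and 0.0503) and that of Pck1 without mouse 4R (adjusted p = 0.0686). Thrsp lost its call with the mouse as a random block (adjusted p = 0.114).

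Of 32 genes of the unfolded protein response and of chaperones, 4 (12.5%) were called, all higher, beside 10.5% of all genes called and 4.42% called higher. Trib3, a pseudokinase induced by ATF4 and CHOP, had levels of 9.21, 7.42, 7.98, 8.72 and 8.17 in livers and 11.02, 10.62, 9.94, 9.69 and 9.90 in tumors. No liver reached a tumor, and mouse 5R had the smallest difference. Trib3 rose by 1.93 (standard error 0.27, adjusted p = 0.00491). Ddit3, which encodes CHOP, had levels of 6.94, 5.95, 6.39, 6.85 and 7.31 in livers and 7.75, 9.24, 9.33, 7.89 and 8.69 in tumors and rose by 1.89 (standard error 0.37, adjusted p = 0.0172). Atf3 rose by 1.23 (standard error 0.21, adjusted p = 0.00929). The fourth, Hspa1b, a heat shock protein, was not higher in every pair. Hspa5, the chaperone BiP, was not called, at 0.79 (standard error 0.28, adjusted p = 0.108), nor was Asns, asparagine synthetase, a target of ATF4, at -0.25 (standard error 0.31, adjusted p = 0.661). Genes of this list called higher numbered 4 with all pairs, but 2 without mouse 4R or 5N. Of 17 aminoacyl tRNA synthetases 3 (17.6%) were called higher, led by Gars for glycine, at 0.87 (standard error 0.15, adjusted p = 0.0115). Aminoacyl tRNA synthetases called higher numbered 3 with all pairs, but 1 without mouse 4R or 5N. Becn1, a regulator of autophagy, rose by 1.27 (standard error 0.16, adjusted p = 0.00363), with differences from 0.96 to 1.69, while Atg7, which activates ATG proteins, fell by 0.89 (standard error 0.21, adjusted p = 0.0312). Bik, a pro-apoptotic BCL2 protein, fell by 1.80 (standard error 0.22, adjusted p = 0.00334). The call of Ddit3 was lost without mouse 4R or 5N (adjusted p = 0.0513 and 0.0659), that of Hspa1b without mouse 4N, 4R, 5N or 6L (adjusted p = 0.0570, 0.0793, 0.0656 and 0.0746), that of Gars without mouse 5N (adjusted p = 0.0531) and that of Atg7 without mouse 4R, 5N or 6L (adjusted p = 0.0943, 0.0822 and 0.0835). Atg7 lost its call without the filter on dim probes (adjusted p = 0.0634). Hspa5 was called higher after median scaling (adjusted p = 0.0432).

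**Figure D4:**
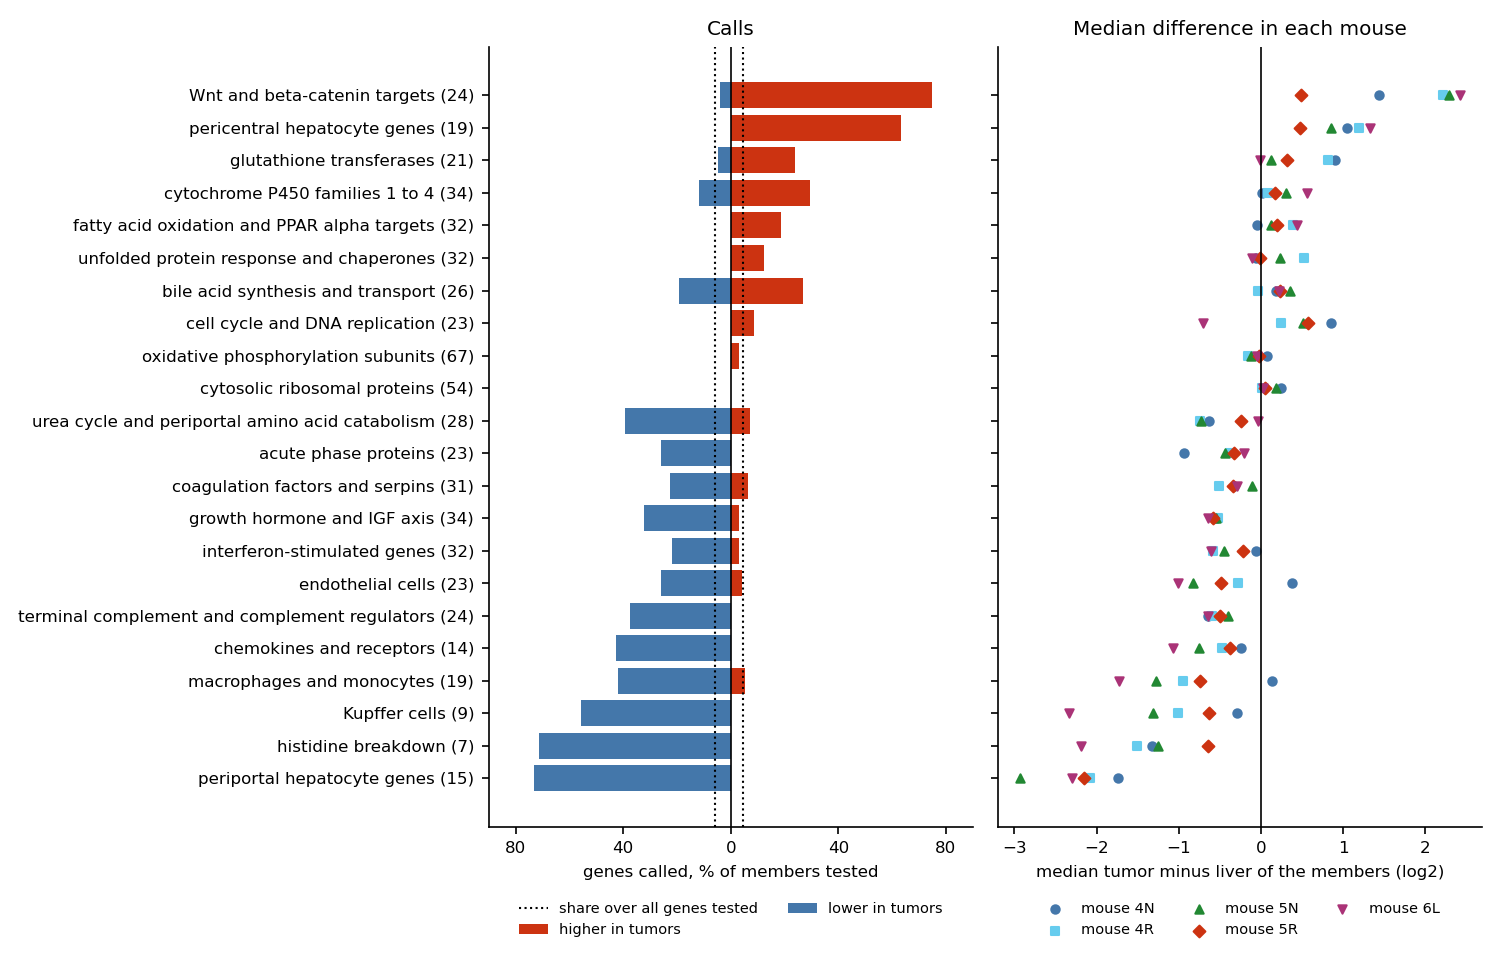
Left, genes called higher (red, to the right) or lower (blue, to the left) in tumors as a percentage of the members tested, given in parentheses, for 22 gene lists, with dotted lines at the shares of all genes tested, 4.42% and 6.04%. Right, the median difference of each list's members in each mouse; mouse 4N lies highest and mouse 6L lowest for macrophages, Kupffer and endothelial cells.

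Markers of resident macrophages were lower in tumors. Of 9 Kupffer cell genes tested, 5 were called lower and none higher, and of 19 genes of macrophages and monocytes 8 were called lower, 7 of them in every pair, and 1 higher. Clec4f, a lectin specific to Kupffer cells in mice, had levels of 9.60, 9.94, 9.998, 7.76 and 10.80 in livers and 8.24, 7.95, 8.10, 6.15 and 7.12 in tumors. Mouse 5R was lowest in both tissues and the groups overlapped through its liver, but every tumor was lower than its own liver. Clec4f fell by 2.11 (standard error 0.30, adjusted p = 0.00518), Vsig4, a complement receptor of these cells, fell by 1.61 (standard error 0.26, adjusted p = 0.00804) and Timd4, a receptor for dying cells, fell by 1.23 (standard error 0.25, adjusted p = 0.0205). Csf1r, the receptor of the macrophage growth factor, had levels of 8.32, 9.20, 9.16, 7.34 and 10.26 in livers and 8.05, 8.17, 7.76, 6.59 and 8.45 in tumors and fell by 1.05 (standard error 0.22, adjusted p = 0.0200). CD NW livers averaged 6.26, and all tumors were above that mean. Summed over 26 macrophage and monocyte genes, the linear level was 12040 to 42960 in livers, 6440 to 13990 in tumors and 2307 to 4308 in CD NW livers, and it was lower in the tumor of every mouse. The call of Timd4 was lost without mouse 4R or 5N (adjusted p = 0.0588 and 0.0761) and that of Csf1r without mouse 4R, 5N or 6L (adjusted p = 0.0670, 0.0807 and 0.0542). Csf1r lost its call with the mouse as a random block (adjusted p = 0.0849).

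The size of these differences varied with the mouse. Mouse 4N had the smallest difference in 8 of the 9 called macrophage genes, and the median of the list was 0.13 in mouse 4N and -1.73 in mouse 6L. Kupffer cell genes called lower numbered 5 with all pairs, but 0 with the mouse ignored, 2 without mouse 4R or 5N and 3 without mouse 6L or with the mouse as a random block. Macrophage genes called lower numbered 8 with all pairs, but 0 with the mouse ignored, 2 without mouse 4R, 5N or 6L, 4 with the mouse as a random block, 13 without mouse 4N and 15 with array weights. Mertk, a receptor for the uptake of dying cells, was the 1 gene called higher, with levels of 7.45, 7.87, 8.14, 7.91 and 8.62 in livers and 8.98, 8.78, 9.30, 8.75 and 9.09 in tumors, which did not overlap. Of 13 genes of lipid-associated macrophages none was called by limma, with 3 at an unadjusted p under 0.05, and Gpnmb, a lysosomal glycoprotein of those cells, differed by 3.31 in mouse 4N and by -1.04 in mouse 6L. The call of Mertk was lost without mouse 5N (adjusted p = 0.0513).

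Genes of sinusoidal endothelium and of interferon and chemokine responses were lower in part. Of 23 endothelial genes, 6 were called lower and 1, Esam, a junction protein, higher, though not in every pair. Endothelial genes called lower numbered 6 with all pairs, but 1 with the mouse ignored, 2 with the mouse as a random block and 3 without mouse 4R. Stab2, a scavenger receptor of the sinusoids, had levels of 8.84, 8.56, 8.57, 8.35 and 9.07 in livers and 7.48, 7.91, 7.31, 7.06 and 8.16 in tumors, without overlap, and Stab2 fell by 1.09 (standard error 0.15, adjusted p = 0.00483). Clec4g, another sinusoidal lectin, fell by 1.67 (standard error 0.26, adjusted p = 0.00656), while the general endothelial gene Pecam1 was at -0.11 (standard error 0.29, adjusted p = 0.862). The sum over 32 endothelial genes was 3705 to 12660 in livers and 3002 to 7925 in tumors and was higher in 1 tumor of 5. Of 32 interferon-stimulated genes 7 were called lower and 1 higher. Oasl1 had levels of 7.73, 7.88, 10.11, 8.18 and 10.18 in livers and 5.69, 6.37, 8.42, 6.85 and 7.32 in tumors, with every tumor below its liver, and fell by 1.89 (standard error 0.22, adjusted p = 0.00275). Irf7, a transcription factor that amplifies interferon, fell by 1.54 (standard error 0.20, adjusted p = 0.00383). Usp18, which removes ISG15 and restrains interferon signaling, rose by 1.52 (standard error 0.22, adjusted p = 0.00541). Interferon-stimulated genes called lower numbered 7 with all pairs, but 0 with the mouse ignored, 3 without mouse 4R, 5N or 6L and 4 with the mouse as a random block or without the filter on dim probes. The part that fewer Kupffer cells, macrophages or endothelial cells had in these differences was not tested. The call of Esam was lost without mouse 4N, 4R, 5N or 6L (adjusted p = 0.0790, 0.0997, 0.131 and 0.104). Clec4g lost its call with the mouse as a random block (adjusted p = 0.0717).

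Of 14 chemokines and receptors, 6 were called lower and none higher. Chemokine genes called lower numbered 6 with all pairs, but 1 without mouse 5N, 2 without mouse 6L or with the mouse ignored and 3 without mouse 4R. Cxcl12, a chemokine of stroma and endothelium, had levels of 11.81, 12.08, 11.95, 11.50 and 11.22 in livers and 9.65, 9.94, 9.98, 10.81 and 9.55 in tumors. The tumor of mouse 5R lay nearest to the livers, which it did not reach. Cxcl12 fell by 1.73 (standard error 0.21, adjusted p = 0.00325) and Ccl9, a chemokine for myeloid cells, fell by 1.51 (standard error 0.30, adjusted p = 0.0169). Tgfbi, a matrix protein induced by transforming growth factor beta, fell by 1.502 (standard error 0.26, adjusted p = 0.0105) and Dcn, decorin, fell by 1.73 (standard error 0.38, adjusted p = 0.0264), in a list of 25 collagens and matrix genes with 3 lower and 1 higher gene. The genes called made 16% of this list, beside 10.5% of all genes called. Matrix genes called lower numbered 3 with all pairs, but 1 without mouse 4R, 5N or 6L or with the mouse ignored and 5 without mouse 4N. The higher gene was Plat, tissue plasminogen activator. Its levels were 8.10, 4.32, 6.26, 8.64 and 5.58 in livers and 10.19, 11.11, 11.07, 9.14 and 12.44 in tumors. The difference was 0.50 in mouse 5R and 6.86 in mouse 6L, with a mean of 4.21 (standard error 0.88, adjusted p = 0.0214). The call of Ccl9 was lost without mouse 5N (adjusted p = 0.0695), that of Dcn without mouse 4R, 5N, 5R or 6L (adjusted p = 0.0556, 0.0969, 0.0633 and 0.0767) and that of Plat without mouse 4R, 5N or 6L (adjusted p = 0.0753, 0.0786 and 0.0593). Dcn lost its call with the mouse as a random block (adjusted p = 0.0689).

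Markers of fetal liver and hepatocellular carcinoma moved in both directions. Of 19 tested, 3 were called higher and 1, Peg3, lower, together 21.1% beside 10.5% of all genes called. The mean difference was positive in 11 of the 19, and the median was 0.242. Mean levels of Sox9, Spink1 and Tff3 were 8.92, 8.095 and 7.99 in livers and 6.93, 6.39 and 6.72 in tumors, without a call. Markers of this list called higher numbered 3 with all pairs, but 1 without mouse 4N, 4R or 5N or with the mouse ignored. Afp, alpha-fetoprotein, had levels of 4.92, 4.39, 5.88, 7.34 and 4.49 in livers and 7.85, 7.45, 7.87, 8.24 and 6.46 in tumors. The liver of mouse 5R lay within the tumor range, the liver of mouse 5N was above background as well, and the others were not. Afp rose by 2.17 (standard error 0.30, adjusted p = 0.00483). Ly6d, a surface protein that marks stressed or transformed hepatocytes in mice, rose by 2.45 (standard error 0.58, adjusted p = 0.0333), by 4.82 in mouse 4R and by 1.05 in mouse 5R. Gpc3, glypican-3, was not called, at 0.86 (standard error 0.43, adjusted p = 0.239), and its difference was 2.06 in mouse 4N and -0.85 in mouse 5R. Igf2, a fetal growth factor, had the widest spread of the list. Its levels were 4.73, 4.99, 6.60, 4.99 and 4.998 in livers and 13.32, 14.03, 7.15, 6.73 and 5.21 in tumors. The tumors of mice 4N and 4R were far above all other arrays, the other 3 tumors stayed at 7.15 or below, and the mean difference of 4.03 was not called (standard error 1.36, adjusted p = 0.0979). The call of Ly6d was lost without mouse 4N, 4R or 5N (adjusted p = 0.0785, 0.0862 and 0.0627). Igf2 was called higher after median scaling (adjusted p = 0.0338).

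**Figure D5:**
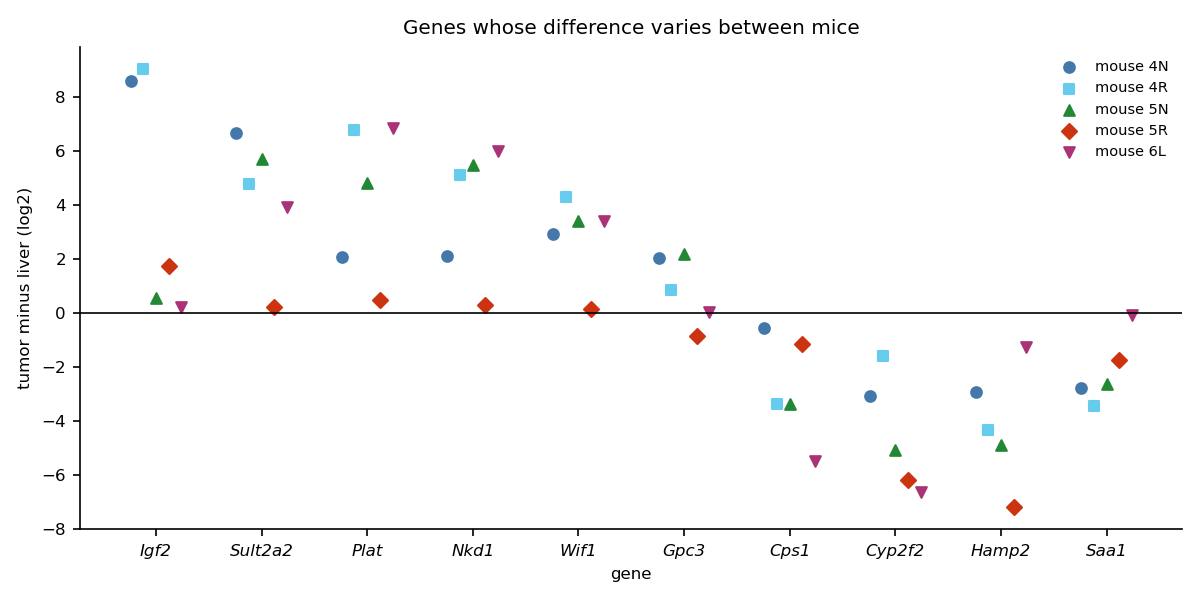
Tumor minus liver on the log2 scale in each mouse for 10 genes whose difference varied between mice. Igf2 differed by 8.59 and 9.04 in mice 4N and 4R and by 1.74 or less in the others, and mouse 5R lies near 0 for Sult2a2, Plat, Nkd1 and Wif1.

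Of 23 genes of the cell cycle and DNA replication, 2 (8.7%) were called higher and none lower, beside 4.42% of all genes called higher and 10.5% called, with a median of 0.27. Ccnd1, cyclin D1, had levels of 9.33, 9.69, 10.90, 11.06 and 9.38 in livers and 11.44, 10.98, 11.95, 12.19 and 9.59 in tumors. Mouse 6L had the smallest difference, at 0.21, and the groups overlapped. Ccnd1 rose by 1.16 (standard error 0.23, adjusted p = 0.0180) and Stmn1, stathmin, by 1.40 (standard error 0.30, adjusted p = 0.0228). Top2a, a topoisomerase of dividing cells, differed by 1.67 in mouse 4N and by -1.01 in mouse 6L. The median of the list was 0.85 in mouse 4N and -0.70 in mouse 6L. Cell cycle genes called higher numbered 2 with all pairs, but 0 without mouse 5N, 1 without mouse 4R or with the mouse ignored or with the mouse as a random block and 5 without mouse 6L. None of 13 p53 targets and none of 13 clock genes was called by limma, with 2 and 2 of them at an unadjusted p under 0.05. Of genes of general cell function, 0 of 54 cytosolic ribosomal proteins (4 at an unadjusted p under 0.05), 2 of 67 oxidative phosphorylation subunits (2.99%), 1 of 71 mitochondrial ribosomal proteins (1.41%) and 2 of 27 proteasome subunits (7.41%) were called, all 5 of them higher. These shares stand beside the 10.5% of all genes called and the 4.42% called higher. None of the oxidative phosphorylation subunits was called with any 1 mouse left out, and none of the proteasome subunits without mouse 4R, 5N, 5R or 6L. The call of Ccnd1 was lost without mouse 4R or 5N (adjusted p = 0.0683 and 0.0638) and that of Stmn1 without mouse 5N (adjusted p = 0.0870). Ccnd1 lost its call with the mouse as a random block (adjusted p = 0.0663).

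Conjugating enzymes held the gene with the largest mean rise after Pnliprp1. Sult2a2, a sulfotransferase of hydroxysteroids that is more active in female liver and shares sequence with its copies, had levels of 5.61, 6.38, 4.91, 8.41 and 5.27 in livers and 12.28, 11.16, 10.63, 8.63 and 9.22 in tumors. The difference was 6.67 in mouse 4N and 0.21 in mouse 5R, and the mean 4.26 (standard error 0.77, adjusted p = 0.0132). Of 23 UDP-glucuronosyl- and sulfotransferases, 3 were called higher and 4 lower. Conjugating enzymes called higher numbered 3 with all pairs, but 0 without mouse 4R or 5N and 1 without mouse 6L or with the mouse ignored. Conjugating enzymes called lower numbered 4 with all pairs, but 2 without mouse 4R or 5N or with the mouse ignored or with the mouse as a random block. Tpst1, which sulfates tyrosines, fell by 2.12 (standard error 0.26, adjusted p = 0.00325). The call of Sult2a2 was lost without mouse 4R or 5N (adjusted p = 0.0527 and 0.0555).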

How the data were processed

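RNA of livers and tumors was hybridized to Illumina BeadChips for the mouse genome, with 45281 probes. The deposited file holds 1 signal intensity per probe and array, which the authors had not normalized between arrays. A second deposited table holds intensity values that the authors had processed, by a method not given in the sources used here, and served as an alternative. Of the probes, 34885 carried 1 gene symbol in the platform annotation and 18 several, and 34807 were updated through their gene identifier to RefSeq symbols (GRCm38.p6).

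Neither control probes nor detection p-values were used here, so 1526 probes of genes without expression in liver stood in as negative controls. Signals of all 15 arrays were corrected and quantile normalized with neqc (offset 16) of limma 3.58.1 in R 4.3.3, then put on the log2 scale. Detection against the stand-ins was set at p under 0.01. Probes above background on at least 5 of the 10 arrays of the comparison were kept (12663), and the brightest probe represented each gene (8674 genes). Of 303 called genes with several kept probes, 12 had probes of opposite sign. Tumor and liver were compared with lmFit and eBayes with a trend, with the mouse as a fixed block, and p-values were adjusted by Benjamini-Hochberg over all genes. All adjusted p-values in the text are from this limma fit unless another setting is named.

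Mouse labels in the titles pair the arrays, and same-label arrays deviated together in every pair. A gene was called at an adjusted p under 0.05 and counted as changed in every pair when all 5 differences had the same sign. Named genes were the 15 higher and 15 lower genes with the largest smallest difference and up to 4 called members of each of 58 lists with the lowest adjusted p. The members and lists were chosen with earlier results of these data known. Further genes were named after their values were seen, as other members of the Wnt, pericentral, periportal, histidine, urea cycle and growth hormone lists and as members of any list that were not called, the imprinted genes and the Y-linked genes.

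Alternatives were no block or a random block for the mouse, no background correction, normexp with an offset of 50, median scaling, normalization over 10 arrays, the authors' values, other filters, the mean of probes, array weights and each mouse left out. The number of arrays, 5 for each tissue, limits the precision, and nothing beyond the labels says how tissue was sampled. Genes with near-identical copies (Mup, Serpina1, Cyp2c, Gstm, Sult2a, Saa and Hamp families) share probes in part. Figures were drawn with matplotlib 3.10.9 in Python 3.11.15.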

Additional observations from a re-analysis of the deposited data

Results flagged for a closer look

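Single arrays far from the other 4 of their group were looked for in the levels and pair differences of the genes named in the text. Among 489 groups of 5 values, 25 had a gap past Dixon's critical value of 0.71. This value flags about 1 in 20 groups of independent normal values, a rate close to the 25 found. The groups here are not independent, since each pair difference is taken from the levels, so the count was not tested against that rate. Most of the gaps in liver levels fell on mouse 6L. The gaps in livers for Igf2 and Wif1 set 1 value above background against levels near or below it that cannot be ordered.

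Of these, 7 were in pair differences of tumor minus liver. For Calml4 mouse 4N had 4.38, against 2.04 to 2.66 in the other mice. Mouse 6L had -3.68 for Clec4f, and the other mice -1.99 to -1.37. Gldc was at -0.762 in mouse 4N and at -4.12 to -3.36 in the others. For Hgfac mouse 6L had -1.77, against -1.06 to -0.916 in the other mice. Mouse 5N had 0.573 for Hnf4a, and the other mice -0.291 to -0.0471. Lgr5 was at 0.433 in mouse 5R and at 2.77 to 3.28 in the others. For Pecam1 mouse 4N had 1.32, against -0.77 to -0.286 in the other mice.

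In liver levels there were 10. For Amdhd1 mouse 6L had 10.4, against 11.3 to 11.6 in the other mice. Mouse 6L had 6.3 for Cdkn1c, and the other mice 7.09 to 7.25. Ghr was at 12.1 in mouse 6L and at 12.9 to 13 in the others. For Gldc mouse 5R had 10.8, against 12.2 to 12.6 in the other mice. Mouse 6L had 10.1 for Hal, and the other mice 11.3 to 11.8. Hspa5 was at 8.88 in mouse 6L and at 7.31 to 7.74 in the others. For Igf2 mouse 5N had 6.6, against 4.73 to 5 in the other mice. Mouse 6L had 10.9 for Irf7, and the other mice 7.94 to 8.56. Slc11a2 was at 10.6 in mouse 6L and at 8.67 to 8.99 in the others. For Wif1 mouse 4N had 6.66, against 4.99 to 5.23 in the other mice.

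In tumor levels there were 8. For Asl mouse 4N had 8.08, against 6.94 to 7.14 in the other mice. Mouse 6L had 5.78 for Nqo1, and the other mice 6.96 to 7.34. Peg3 was at 5.8 in mouse 4R and at 4.81 to 5.06 in the others. For Slc1a4 mouse 6L had 10.7, against 7.6 to 8.33 in the other mice. Mouse 4N had 9.61 for Tbx3, and the other mice 10.9 to 11.2. Thrsp was at 5.91 in mouse 6L and at 8.4 to 8.74 in the others. For Tpst1 mouse 4N had 8.52, against 6.18 to 6.78 in the other mice. Mouse 5R had 5.28 for Wif1, and the other mice 8.41 to 9.59.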

How the results depend on the processing

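Called genes numbered 680 to 1230 under the 10 other settings that kept the mouse and all 5 pairs, within 1.5 times the 907 given above. When the pairing was ignored (no replicate block) 348 genes were called, 170 higher and 178 lower, and 163 and 176 of these were higher or lower in every pair; 344 of the 907 genes were still called, and 43 of the named genes lost their call. With the mouse as a random block, which keeps the pairing as an estimated correlation, 771 of the 907 genes were among the 992 called, and 11 of the named genes lost their call. With 1 mouse left out, called genes ranged from 334 to 867, higher genes from 135 to 346 and lower genes from 199 to 537, and genes called in every pair from 135 to 346 and from 199 to 536. The counts more than 1.5 times lower came from leaving out mouse 4R (393), 5N (334) or 6L (520), each with 1 pair fewer in the fit. The genes over 2-fold higher in every pair were 32 to 103 with 1 mouse left out, with 103 without mouse 5R, and the lower ones 75 to 102. The 2-fold counts in every pair fell to 15 higher and 42 lower without background correction, 19 and 47 with normexp at an offset of 50, 13 and 41 with the authors' values, and 14 and 40 when all 10 arrays had to be above background, which left 7005 genes; for the other settings the cause was not tested. With median scaling the median difference over all genes was 0.0817 and 48.1% of called genes were higher, against 42.2%. Of 140 called genes named in the text, 75 were called under each of the 16 settings that tested them, and none of them changed its direction under these settings. Dim probes limit what can be seen, since values below a log2 level of about 5.1 to 5.6 are not above background.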

Other observations

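Of 10 imprinted genes with a probe, looked at after the levels of Igf2 were seen, 4 were bright enough to be tested, and of these Grb10 was called higher and Peg3 lower. Cdkn1c, an inhibitor of cell division, was not called, with levels of 7.18, 7.25, 7.09, 7.16 and 6.30 in livers and 6.42, 7.34, 7.11, 7.26 and 6.78 in tumors. Rtl1 and Plagl1 were above background on no array, and Dlk1 and Mest in 1 tumor each and in no liver. Grb10, an adaptor that restrains insulin and IGF signaling, had levels of 5.20, 6.02, 6.29, 5.27 and 5.33 in livers and 7.32, 8.18, 7.70, 5.76 and 6.08 in tumors, in the order of mice 4N, 4R, 5N, 5R and 6L, and rose by 1.39 (standard error 0.27, adjusted p = 0.0172 from limma). The non-coding RNAs Meg3 and Rian, of 1 imprinted cluster, were above background on no WD SW liver and were too dim in most arrays to be tested. Meg3 had tumor levels of 7.44, 4.66, 7.77, 4.96 and 4.49, above background in mice 4N and 5N. Rian had tumor levels of 8.04, 4.52, 8.40, 6.66 and 4.37, above background in mice 4N, 5N and 5R. The tumor of mouse 4N was thus high for Igf2, Meg3 and Rian, while that of mouse 4R was high for Igf2 and not above background for Meg3 and Rian. Peg3, a paternally expressed zinc finger gene, was above background on 5 liver arrays and 1 tumor array and fell by 1.30 (standard error 0.28, adjusted p = 0.0247). The call of Grb10 was lost without mouse 4R or 5N (adjusted p = 0.0641 and 0.0659) and that of Peg3 without mouse 4N, 5N or 6L (adjusted p = 0.0577, 0.0926 and 0.0722).

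Of 3 genes of the Y chromosome looked at, 2 were called lower in tumors. Eif2s3y, a translation factor subunit, had levels of 10.23, 9.999, 10.27, 10.001 and 9.97 in livers and 10.17, 7.49, 9.24, 7.20 and 8.04 in tumors. The tumor of mouse 4N stayed at the level of its liver, and the tumors of mice 4R, 5R and 6L were far lower. Eif2s3y fell by 1.66 (standard error 0.36, adjusted p = 0.0247) and Kdm5d, a histone demethylase, fell by 1.005 (standard error 0.23, adjusted p = 0.0280), with differences from -1.95 in mouse 5R to -0.61. Uty, a dim gene of the same chromosome, was not called, at -0.10 (standard error 0.23, adjusted p = 0.837), and its difference was 0.26 in mouse 5R. Xist was above background on none of the 15 arrays. The call of Eif2s3y was lost without mouse 4R, 5N, 5R or 6L (adjusted p = 0.0897, 0.0582, 0.0548 and 0.0699) and that of Kdm5d without mouse 4R, 5N or 6L (adjusted p = 0.0948, 0.0689 and 0.0505). Kdm5d lost its call without the filter on dim probes (adjusted p = 0.0593).

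Genes of neutrophils and antimicrobial proteins and of antigen presentation were lower in part. Of 9 neutrophil genes tested, 3 were called lower. Neutrophil genes called lower numbered 3 with all pairs, but 1 without mouse 4R, 5N, 5R or 6L or with the mouse ignored. Wfdc21, a secreted antiprotease that hepatocytes also make, fell by 3.31 (standard error 0.46, adjusted p = 0.00491), with levels of 11.36, 11.12, 10.04, 10.61 and 11.24 in livers and 9.57, 8.66, 6.92, 4.97 and 7.72 in tumors. S100a8, a calcium-binding protein of neutrophils, fell by 1.07 (standard error 0.24, adjusted p = 0.0268). The summed level of 16 neutrophil genes was 4436 to 39340 in livers and 2250 to 31970 in tumors and was lower in the tumor of every mouse. Bright genes weigh most in this linear sum, and 3 of the 16 in livers and 4 in tumors were above background on no array. A change in the number of neutrophils was not tested. Of 7 genes of MHC class II, 2 were called lower. These, H2-DMb1 and H2-DMa, which load peptides on MHC class II, had log2 differences of -0.96 (standard error 0.22, adjusted p = 0.0305) and -0.88 (standard error 0.23, adjusted p = 0.0431), and their levels in the liver and tumor of mouse 6L were the highest of their groups. MHC class II genes called lower numbered 2 with all pairs, but 0 without mouse 4R, 5N or 6L or with the mouse ignored or with the mouse as a random block or without background correction or with normexp at an offset of 50 or with the authors' values or without the filter on dim probes and 1 without mouse 5R. Sort1, a sorting receptor of lipoprotein secretion, rose by 1.81 (standard error 0.27, adjusted p = 0.00541), with levels of 8.05, 8.66, 8.34, 9.84 and 7.69 in livers and 10.15, 10.17, 10.94, 10.43 and 9.94 in tumors, and every tumor lay above every liver. Apoc3, an apolipoprotein of triglyceride-rich particles, fell by 0.77 (standard error 0.17, adjusted p = 0.0236), and every tumor lay below every liver. The call of S100a8 was lost without mouse 4R, 5N, 5R or 6L (adjusted p = 0.0617, 0.0570, 0.0620 and 0.0614), that of H2-DMb1 without mouse 4R, 5N or 6L (adjusted p = 0.0721, 0.107 and 0.0941), that of H2-DMa without mouse 4R, 5N, 5R or 6L (adjusted p = 0.0753, 0.146, 0.0727 and 0.127) and that of Apoc3 without mouse 4R, 5N or 5R (adjusted p = 0.0699, 0.0855 and 0.0503). H2-DMa lost its call with the authors' values (adjusted p = 0.0769), with the mouse as a random block (adjusted p = 0.243), without background correction (adjusted p = 0.0779), without the filter on dim probes (adjusted p = 0.0749) and with normexp at an offset of 50 (adjusted p = 0.0659). H2-DMb1 lost its call with the authors' values (adjusted p = 0.0591), with the mouse as a random block (adjusted p = 0.181), without background correction (adjusted p = 0.0599), without the filter on dim probes (adjusted p = 0.0504) and with normexp at an offset of 50 (adjusted p = 0.0505). S100a8 lost its call with the mouse as a random block (adjusted p = 0.237).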
